A study of Mus musculus with 10 samples.

Results

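The mouse Schlafen genes form a family that sits side by side on chromosome 11 and was first described in developing T cells. All members share an N-terminal Schlafen core, and they are usually divided by length into short (Slfn1, Slfn2), intermediate (Slfn3, Slfn4) and long (Slfn5, Slfn8, Slfn9) proteins, the long ones carrying a C-terminal region related to helicases. Several are induced by type I interferon, and the family is known for restraining the growth of thymocytes, for keeping T cells quiescent, for myeloid differentiation and for binding or cutting RNA. The 7 members were the genes whose symbol is Slfn1, Slfn2, Slfn3, Slfn4, Slfn5, Slfn8 or Slfn9. All 7 were present among 20813 genes, and all 7 were among the 15276 tested genes with a mean normalized count of at least 10 over the 10 samples.

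Bulk RNA sequencing covered 10 leukemic spleens from C57BL/6 mice with transplanted T-ALL, acute lymphoblastic leukemia of the T lineage, a cancer of immature T cells. The leukemias of both groups carried the conditional Sirt1 allele and had been injected intravenously into recipients irradiated below the lethal dose, and no step that removes host cells from the spleen is described beyond red cell lysis. The 5 spleens with the genotype label Sirt1 deleted have titles beginning TMX and the 5 with the label Control have titles beginning VEH; per the protocols, mice received tamoxifen at 3 mg per mouse in corn oil, or corn oil alone. A sample is given here by its group and its title number. The driver of the recombinase, the age of the mice, the number of independent leukemias and whether samples came from separate donors of leukemia are not given in the sources used here, so p-values measure the spread between these samples. The labels do not spell out the title abbreviations; read as tamoxifen and vehicle, drug and deletion divide the samples identically and cannot be told apart.

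The normalized total of a sample was 33.7 to 34.5 M (M, mega), and the spacing of low values put its depth at roughly 31.4 to 38.5 M reads. Sirt1, which encodes a NAD-dependent deacetylase, had normalized counts of 1810 ± 62.5 in controls and 1873 ± 146 under the Sirt1-deleted label (mean ± SD over 5 samples per group; limma log2 difference 0.05, adjusted p = 0.568). The gene-level value of the targeted gene therefore did not separate the groups, and it cannot show whether single exons were lost. Markers of the T lineage, the labelled cell type, were present in every sample, with summed normalized counts of 253224 to 277821 in the labelled Sirt1-deleted group and 248096 to 263421 in controls, and 2 of 14 were called higher and 4 lower. Over all tested genes limma called 16.8% higher and 19.4% lower (adjusted p under 0.05), the shares beside which all marker counts here stand. Neutrophil markers summed to 28974.5 to 99981.7 against 9166 to 12658.5, and monocyte and macrophage markers to 6243 to 12895 against 3080 to 3415; no marker in the table was at 0 in every sample. Of the other lists, 1 of 8 B cell markers and 1 of 7 tested dendritic markers were called higher, 1 of 6 tested endothelial and stromal markers was called lower, and 4 tested NK cell and 8 erythroid markers did not pass in limma (at an unadjusted p under 0.05, 1 NK cell marker was higher and 1 erythroid marker lower). Labelled Sirt1-deleted replicate 10 stood nearest to the controls in the interferon effector genes described below, and the range of every member's difference without each single sample is given with the limits at the end.

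Positions are on chromosome 11 of GRCm38 (GENCODE M21), the build that the name mm10 in the submitters' processing notes denotes. On the plus strand lie Slfn5 (ENSMUSG00000054404.13, start 82951349, end 82964840), Slfn2 (ENSMUSG00000072620.3, start 83065112, end 83070678), Slfn1 (ENSMUSG00000078763.2, start 83116849, end 83122670), Slfn4 (ENSMUSG00000000204.16, start 83175186, end 83190216) and Slfn3 (ENSMUSG00000018986.10, start 83191330, end 83215154). On the minus strand lie Slfn9 (ENSMUSG00000069793.12, start 82978390, end 82991830) and Slfn8 (ENSMUSG00000035208.16, start 83002158, end 83020810). The pseudogene Slfn10-ps lies between Slfn8 and Slfn2, and Slfn14 closes the cluster.

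Promoters are shown because members of near-identical sequence gave different values, including the strongest rise and the only called fall among the members. Each RefSeq window of 300 bases runs 5′ to 3′ from 250 bases before to 50 bases after a RefSeq transcript start. For Slfn5 this start is 82952102, where its longest coding transcript begins in GENCODE; a transcript without a coding region begins upstream, at 82951349. Capitals mark matches to GAAA, any 2 bases, then GAAA, the core of the interferon-stimulated response element (ISRE), searched on both strands.
Slfn5, plus strand, chr11:82951852-82952151: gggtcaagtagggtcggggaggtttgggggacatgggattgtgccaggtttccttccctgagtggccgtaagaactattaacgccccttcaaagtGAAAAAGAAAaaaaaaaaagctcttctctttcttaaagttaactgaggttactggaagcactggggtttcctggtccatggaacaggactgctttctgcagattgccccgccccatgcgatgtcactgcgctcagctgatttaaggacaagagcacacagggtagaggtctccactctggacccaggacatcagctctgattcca
Slfn8, minus strand, chr11:83020761-83021060: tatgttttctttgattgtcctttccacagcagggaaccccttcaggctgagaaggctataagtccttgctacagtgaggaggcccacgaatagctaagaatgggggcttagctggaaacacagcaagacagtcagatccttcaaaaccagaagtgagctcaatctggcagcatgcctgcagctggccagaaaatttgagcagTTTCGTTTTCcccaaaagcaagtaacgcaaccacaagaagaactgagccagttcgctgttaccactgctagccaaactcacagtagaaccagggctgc
Slfn9, minus strand, chr11:82991781-82992080: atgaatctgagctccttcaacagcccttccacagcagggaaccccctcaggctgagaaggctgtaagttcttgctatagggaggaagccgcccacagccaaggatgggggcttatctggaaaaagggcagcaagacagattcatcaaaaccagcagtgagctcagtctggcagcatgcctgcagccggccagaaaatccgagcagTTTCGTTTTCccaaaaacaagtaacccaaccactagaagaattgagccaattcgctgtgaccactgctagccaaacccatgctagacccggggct
Slfn4, plus strand, chr11:83174936-83175235: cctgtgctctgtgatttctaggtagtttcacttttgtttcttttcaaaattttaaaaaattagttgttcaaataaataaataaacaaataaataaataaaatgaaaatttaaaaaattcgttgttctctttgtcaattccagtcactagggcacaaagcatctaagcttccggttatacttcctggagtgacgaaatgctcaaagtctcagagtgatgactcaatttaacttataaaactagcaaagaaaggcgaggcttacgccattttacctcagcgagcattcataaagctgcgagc
Slfn3, plus strand, chr11:83191080-83191379: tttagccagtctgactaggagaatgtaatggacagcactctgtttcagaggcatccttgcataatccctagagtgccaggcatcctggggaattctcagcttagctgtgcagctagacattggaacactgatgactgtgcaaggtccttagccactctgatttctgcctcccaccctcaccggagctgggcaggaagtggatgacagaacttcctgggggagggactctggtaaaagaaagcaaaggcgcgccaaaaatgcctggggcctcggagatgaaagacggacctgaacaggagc

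An ISRE match was present in the windows of Slfn5, Slfn8 and Slfn9, and no match to these letters was present in the windows of Slfn1, Slfn2, Slfn3 and Slfn4. Over all 32851 RefSeq promoter windows of this length, 3.44% held a match. The match of Slfn5 (GAAAAAGAAA) began at position -155 from the start within an A-rich stretch. Those of Slfn8 and Slfn9 had the same letters (TTTCGTTTTC, the reverse complement), at positions -48 and -45. The Slfn8 and Slfn9 windows were identical at 248 of 292 aligned bases (84.9%). The palindromic STAT motif TTCNNNGAA was absent from the windows of all 7 members and present in 8.30% of all windows. A second RefSeq start of Slfn8 gave the same ISRE match.

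Of the 7 members, 5 rose (Slfn1, Slfn2, Slfn4, Slfn5 and Slfn8), 1 fell (Slfn3) and 1 did not pass the test (Slfn9; limma on log2(normalized count + 1), Benjamini-Hochberg adjusted p under 0.05 over all tested genes). Of all tested genes 36.1% were called, 16.8% as higher and 19.4% as lower in the labelled Sirt1-deleted group (2562 and 2956 genes, or 3162 and 2272 under upper-quartile rescaling). The median log2 difference was 1.35 over the 7 members and -0.00 over all tested genes. Every labelled Sirt1-deleted value lay above every control value for the 5 members that rose, a separation seen in 11.1% of tested genes, and below for the member that fell, as in 12.9% of tested genes. For each of these 6 members an exact two-sided permutation test gave p = 0.00794, the smallest possible with 5 samples against 5. In bulk tissue, fewer or more cells that express a gene cannot be told apart from less or more RNA per cell.

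**Figure D1:**
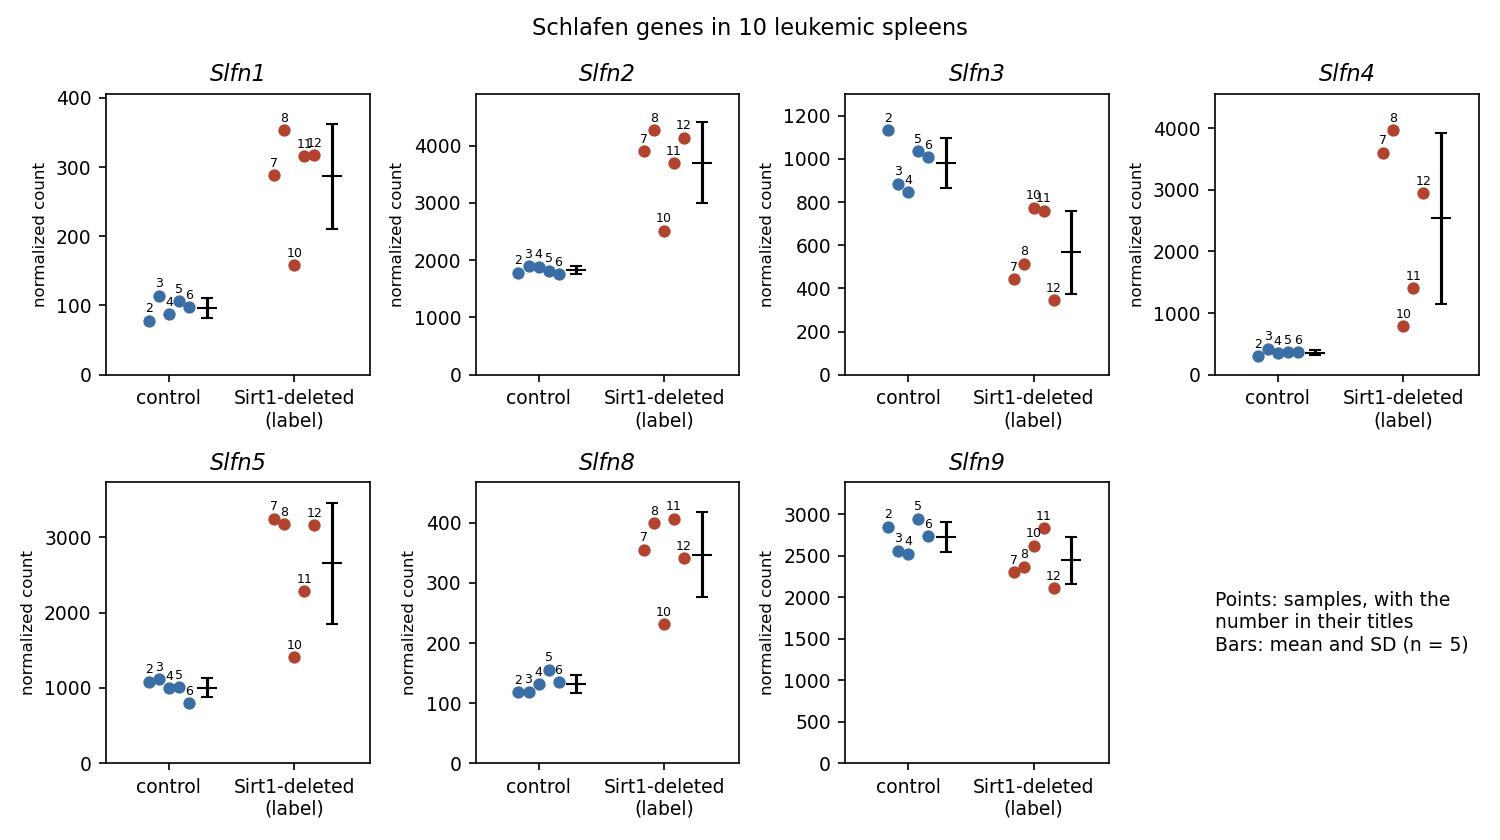
Normalized count (vertical axes, from 0) of each Schlafen gene in every sample; points are samples with the number of their title, and bars are mean and SD of 5 samples per group. Slfn4 has the widest spread among labelled Sirt1-deleted samples, from 786 in replicate 10 to 3965 in replicate 8, and Slfn3 lies below the controls.

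Among the short members, Slfn1 was described as a suppressor of thymocyte growth when expressed beyond its normal time. Its normalized counts were 288 in labelled Sirt1-deleted replicate 7, 353 in replicate 8, 158 in replicate 10, 316 in replicate 11 and 317 in replicate 12, against 78.0, 114, 87.7, 106 and 97.5 in control replicates 2, 3, 4, 5 and 6. Replicate 10 was the lowest of its group and still above the highest control. The mean rose 2.96-fold, from 96.8 ± 14.5 to 287 ± 75.5 (SD over 5 samples, as for all members; limma log2 difference 1.52, SE 0.20, adjusted p = 4.57e-04). Slfn1 transcripts were nearly unique in sequence: 1.96% of their 31-base words occurred in transcripts of another gene. The RefSeq non-coding gene Gm51911 overlaps it.

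Slfn2 encodes the member whose loss in mice breaks T cell quiescence and depletes T cells. It had normalized counts of 3905, 4268, 2514, 3692 and 4139 in labelled Sirt1-deleted replicates 7, 8, 10, 11 and 12, and 1780, 1896, 1888, 1816 and 1757 in control replicates 2 to 6. The controls lay within a narrow band, and replicate 10 was again the lowest of its group and above all of them. The mean rose from 1827 ± 62.6 to 3703 ± 701, 2.03-fold (limma log2 difference 0.99, SE 0.12, adjusted p = 2.66e-04). Of its 31-base words, 10.3% were shared with other genes, mainly Slfn4, and the RefSeq non-coding gene Gm20234 overlaps Slfn2.

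The intermediate members Slfn3 and Slfn4 moved in opposite directions. Slfn4 is known as a gene of myeloid cells that is regulated during macrophage activation and differentiation. Slfn4 normalized counts were 3600, 3965, 786, 1401 and 2945 in labelled Sirt1-deleted replicates 7, 8, 10, 11 and 12, against 298, 420, 344, 360 and 370 in control replicates 2 to 6. The lowest labelled Sirt1-deleted value, in replicate 10, was above the highest control, and the others were far above. The mean rose from 359 ± 44.1 to 2540 ± 1387, 7.08-fold (log2 difference 2.59, SE 0.37, 95% interval 1.80 to 3.38; limma adjusted p = 6.08e-04). Counting Slfn4 itself, 33 of the 15276 tested genes had a log2 difference at least as large.

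Slfn4 had the same order over the labelled Sirt1-deleted samples as the summed neutrophil markers, which were 99981.7 in replicate 8, 60144.6 in replicate 7, 44848.5 in replicate 12, 39751.5 in replicate 11 and 28974.5 in replicate 10. The controls did not share this order. Control replicate 4 had the highest neutrophil sum, 12658.5, with Slfn4 at 344. Control replicate 3 had the highest Slfn4 count, 420, with a sum of 9638. Summed monocyte and macrophage markers were higher in labelled Sirt1-deleted replicate 11 (7938) than in replicate 12 (6927), the reverse of Slfn4. Of the 14 neutrophil markers 13 were called higher, and of the 16 monocyte and macrophage markers 13, where 16.8% of all tested genes were. Log2 differences over the neutrophil list ran from 0.75 for Elane, which did not pass, to 3.42 for Ly6g, a neutrophil surface antigen. Over the monocyte and macrophage list the largest was 1.97, for Ly6c2, a monocyte surface antigen. The part of these cells in the rise of Slfn4 was not tested.

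Slfn3, a close relative of Slfn4 studied in T cells and in the intestinal epithelium, fell. Slfn3 normalized counts were 441, 514, 774, 760 and 344 in labelled Sirt1-deleted replicates 7, 8, 10, 11 and 12, against 1133, 885, 845, 1036 and 1007 in control replicates 2 to 6. Replicates 10 and 11 were closest to the controls but below the lowest of them. The mean was 981 ± 117 in controls and 567 ± 193 in the other group (limma log2 difference -0.85, SE 0.20, adjusted p = 0.00610), and the control mean was 1.73-fold the labelled Sirt1-deleted mean. The coding sequences of Slfn3 and Slfn4 were identical at 1647 of 1785 aligned bases (92.3%).

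Shared sequence makes the division of reads between Slfn3 and Slfn4 uncertain, since 30.04% of the 31-base words of Slfn3 and 20.1% of those of Slfn4 occurred in other genes. The pseudogene Gm11427, between Slfn3 and Slfn14, shared 367 such words with Slfn3 and 348 with Slfn4. It was singled out for this overlap after its values were seen. It was called higher, at 7281 ± 539 in controls and 10313 ± 789 in the labelled Sirt1-deleted group (limma log2 difference 0.50, SE 0.06, adjusted p = 3.90e-04). The sum of Slfn3 and Slfn4 was 1560 to 4479 in the labelled Sirt1-deleted samples and 1189 to 1431 in controls. With Gm11427 added it was 11536 to 14968 against 7811 to 9095. Neither sum overlapped between the groups. Gm11427 makes up most of the second sum and alone ran from 9767 to 11679 against 6380 to 7718. Neither sum can show how reads of Slfn3 and Slfn4 were divided, since each adds both genes. The first sum contains the rise of Slfn4, so its separation does not bear on the fall of Slfn3.

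Among the long members, Slfn5 encodes a nuclear protein induced by interferon. Slfn5 normalized counts were 3246, 3174, 1408, 2286 and 3159 in labelled Sirt1-deleted replicates 7, 8, 10, 11 and 12, against 1083, 1116, 991, 1008 and 792 in control replicates 2 to 6. Replicates 10 and 11 were lower than the other labelled Sirt1-deleted samples and above all controls. The mean rose from 998 ± 126 to 2655 ± 801, 2.66-fold (limma log2 difference 1.35, SE 0.20, adjusted p = 7.56e-04). Its transcripts shared 4.92% of their 31-base words with other genes, none of them a Schlafen gene among the 3 with the most shared words. The antisense gene Slfn5os overlaps it, and whether counting used the strand is not given in the sources used here, so reads of the pair cannot be told apart.

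Slfn8 and Slfn9 are long members whose coding sequences, each 2730 bases, were identical at 2531 positions (92.7%). Slfn8 normalized counts were 355, 400, 232, 407 and 341 in labelled Sirt1-deleted replicates 7, 8, 10, 11 and 12, against 118, 119, 132, 156 and 134 in control replicates 2 to 6. Every labelled Sirt1-deleted sample was above every control, with replicate 10 the lowest. The mean rose from 132 ± 15.3 to 347 ± 70.3, 2.63-fold (limma log2 difference 1.37, SE 0.15, adjusted p = 1.77e-04).

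Slfn9 did not pass the test. Its normalized counts were 2306, 2369, 2624, 2832 and 2108 in labelled Sirt1-deleted replicates 7, 8, 10, 11 and 12, and 2850, 2561, 2524, 2947 and 2736 in control replicates 2 to 6. The groups overlapped, with 3 labelled Sirt1-deleted samples below every control and none above. The means were 2448 ± 283 and 2724 ± 182 (log2 difference -0.16, 95% interval -0.33 to 0.01; limma adjusted p = 0.128; exact two-sided permutation p = 0.103). Without labelled Sirt1-deleted replicate 11 the log2 difference was -0.21 and it passed (limma adjusted p = 0.0356).

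Reads of Slfn8, Slfn9 and Slfn10-ps are also hard to divide: 26.8% of the 31-base words of Slfn8 and 23.6% of those of Slfn9 occurred in other genes, 792 of them in both. The sum of Slfn8, Slfn9 and Slfn10-ps was 2566 to 3332 in the labelled Sirt1-deleted samples and 2779 to 3189 in controls. This sum overlapped between the groups. Its SD was 282 and 185, and the Slfn8 means were 347 and 132, so the sum could not resolve a rise of Slfn8. Slfn10-ps itself measured 114 ± 12.3 and 111 ± 18.5 (log2 difference 0.05; limma adjusted p = 0.824).

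**Figure D2:**
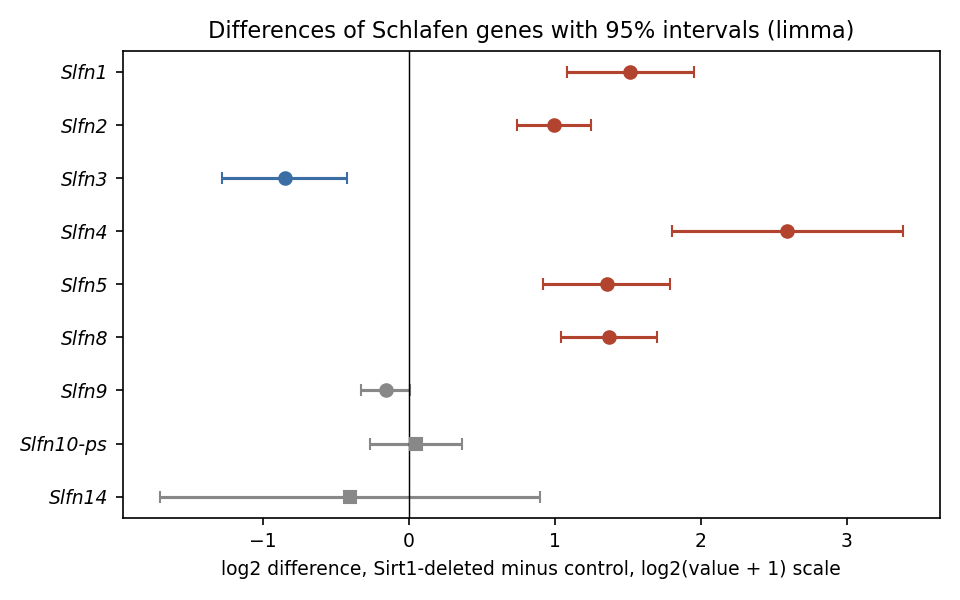
Log2 difference of each Schlafen gene between labelled Sirt1-deleted and control samples (horizontal axis, log2(value + 1) scale) with limma's 95% interval, n = 5 per group; circles are members, squares are Slfn10-ps and Slfn14, red and blue mark calls as higher and lower and grey no call. Slfn4 has the largest difference, 2.59, and Slfn3, at -0.85, is the gene called lower.

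**Figure D3:**
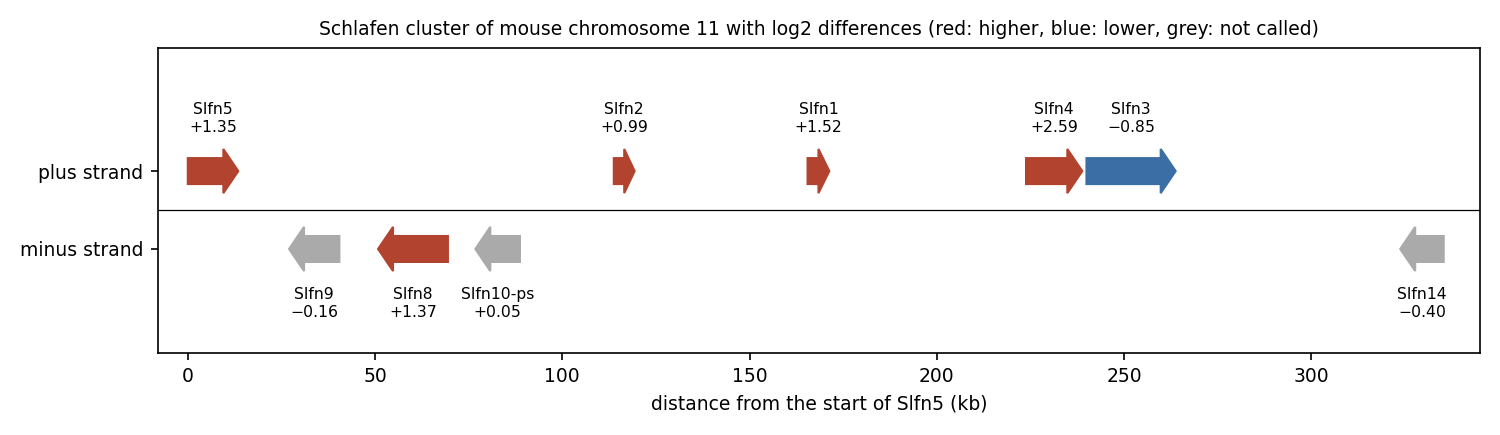
Map of the Schlafen cluster on chromosome 11, with the distance from the start of Slfn5 in kb on the horizontal axis and the strand on the vertical axis; arrows are genes drawn to scale in the direction of transcription, and numbers are log2 differences. Slfn4 (2.59) and Slfn3 (-0.85) are direct neighbours on the same strand, as are Slfn9 (-0.16) and Slfn8 (1.37).

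The members differed in the size of their change. For each of the 21 pairs the difference of the log2 values of both genes was taken within each sample, which removes the scaling of the sample, and compared between groups by an exact two-sided permutation test with Benjamini-Hochberg adjustment over the 21 pairs. The changes of 18 pairs differed. Slfn4 and Slfn3 were furthest apart: the log2 value of Slfn3 minus that of Slfn4 was 1.45 ± 0.314 in controls and -1.99 ± 1.44 in the labelled Sirt1-deleted samples (exact permutation p = 0.00794, adjusted p = 0.0111). Slfn8 minus Slfn9 was -4.36 ± 0.143 in controls and -2.84 ± 0.379 in the labelled Sirt1-deleted samples, a shift of 1.53 (exact permutation p = 0.00794, adjusted p = 0.0111). Slfn4 minus Slfn9 shifted by 2.75 (exact permutation adjusted p = 0.0111). The 3 pairs that did not pass were formed by Slfn1, Slfn5 and Slfn8. Their shifts were 0.16 for Slfn1 minus Slfn5, 0.15 for Slfn1 minus Slfn8 and -0.02 for Slfn5 minus Slfn8 (exact permutation adjusted p = 0.375, 0.307 and 0.921).

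Levels of different genes were compared per length, as normalized count per kb of the longest annotated coding transcript. For Slfn3 this transcript has 1966 bases, of which 1920 are coding, while its 3 transcripts together hold 3409 distinct 31-base words. A longer Slfn3 transcript would give it a lower level and share. In controls Slfn2 was highest, at 1098 ± 37.6 per kb, followed by Slfn3 at 499 ± 59.3 and Slfn9 at 472 ± 31.6, whose ranges overlapped. Slfn5 followed at 167 ± 21.1, Slfn4 at 90.6 ± 11.2, Slfn1 at 51.9 ± 7.76 and Slfn8 at 32.9 ± 3.80 per kb, with no overlap between neighbours in this order. In the labelled Sirt1-deleted samples Slfn2 was again highest, at 2226 ± 421 per kb, and did not overlap with the next. Slfn4 at 642 ± 350, Slfn5 at 444 ± 134, Slfn9 at 424 ± 49.0, Slfn3 at 288 ± 98.0, Slfn1 at 154 ± 40.5 and Slfn8 at 86.5 ± 17.5 per kb each overlapped with its neighbour in the order.

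The makeup of the family's signal per kb differed accordingly. The 7 members summed to 2334 to 2485 per kb in controls and to 2936 to 5058 in the labelled Sirt1-deleted samples. Slfn2 held 45.6% ± 2.22 of this sum in controls and 52.2% ± 1.98 in the labelled Sirt1-deleted group (mean ± SD). The share of Slfn3 was 20.7% ± 2.12 in controls and 7.33% ± 4.02 in the other group, and that of Slfn4 was 3.76% ± 0.488 and 14.2% ± 6.13. These shares rest on annotated lengths, for Slfn3 on the choice of transcript described above. They also carry the uncertainty of reads shared between Slfn3 and Slfn4.

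Interferons bind paired receptors at the cell surface, whose kinases activate transcription factors that bind ISREs. Of 10 interferon genes listed, Ifng was in the table and was below the filter, at 7.57 ± 2.04 and 4.44 ± 2.97. Counts of the interferon lists stand beside 16.8% of all tested genes called higher and 19.4% called lower. Of 6 receptor genes, 2 were called higher and 2 lower. Ifnlr1, a subunit of the lambda interferon receptor, rose by 1.96 and Ifngr2 by 0.39, while Ifngr1 fell by 0.42 and Ifnar1, a subunit of the type I receptor, fell by 0.19 on the log2 scale.

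Of 12 genes for kinases, STATs and IRFs, 7 were called higher and 2 lower; the exact permutation test with Benjamini-Hochberg adjustment called 5 of the 12. Irf7, which amplifies type I interferon production, rose from 410 ± 59.4 to 1813 ± 445 (limma log2 difference 2.11, adjusted p = 3.52e-05), and Irf9 from 1283 ± 164 to 2650 ± 448 (limma log2 difference 1.04, adjusted p = 2.96e-04). The kinase genes Jak2 and Jak1 fell by 0.45 and 0.35. All 7 feedback inhibitor genes passed, 5 as higher and 2 as lower. Usp18, which blocks signalling at the type I receptor, rose by 1.83 and Socs3 by 0.92, while the phosphatase gene Ptpn6 fell by 0.28 and Pias1 by 0.13.

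Of 20 interferon effector genes, 18 were called higher, with a median log2 difference of 1.67, against -0.00 over all tested genes. Ifit1 rose by 3.26 and Ifit3 by 3.24 on the log2 scale. The mean log2 value over the 20 genes was 9.98, 10.04, 9.31, 10.27 and 10.11 in labelled Sirt1-deleted replicates 7, 8, 10, 11 and 12, and 8.07, 8.12, 8.16, 8.54 and 8.40 in control replicates 2 to 6. Replicate 10, the lowest of its group here, was also the lowest of its group for all 5 members that rose. Replicate 11 was the highest of its group here and for Slfn8, but the second lowest for Slfn2, Slfn4 and Slfn5.

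**Figure D4:**
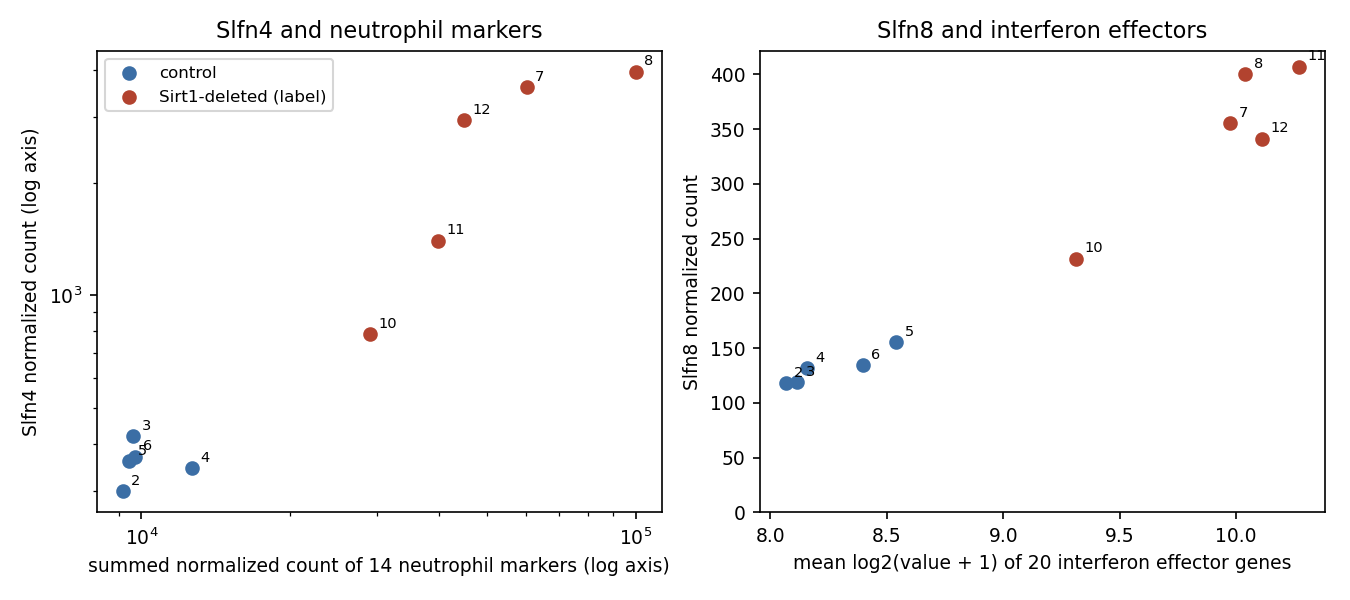
Left, Slfn4 normalized count against the summed normalized count of 14 neutrophil markers (both log axes); right, Slfn8 normalized count against the mean log2(value + 1) of 20 interferon effector genes; points are samples, with the number of their title. In the left panel the labelled Sirt1-deleted samples run from replicate 10 (786) to replicate 8 (3965) in the same order on both axes. The order of the controls differs between these axes. In the right panel replicate 10 (232) lies between the controls and the other 4.

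Slfn2 is tied to T cell quiescence, and 16 other genes known for it were read beside it. Of these, 2 were called higher, 1 lower and 13 did not pass, where 36.1% of all tested genes were called. Tsc2, a brake on mTORC1, rose by 0.55 and the transcription factor gene Klf4 by 1.08 on the log2 scale. Il7r, the interleukin-7 receptor gene, was lower, at 870 ± 184 against 1667 ± 266 (limma log2 difference -0.95, adjusted p = 0.00102). Without labelled Sirt1-deleted replicate 10, 8 genes of this list passed.

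The genes whose log2 profile over the 10 samples, centred on its own mean, came nearest to each member were found among all tested genes outside the family. The measure was the root-mean-square difference over the 10 samples on the log2 scale, in which the difference between groups counts most. Nearest to Slfn1 were Oas1a (0.112), Xaf1 (0.132) and Dhx58 (0.138). Nearest to Slfn8 were Oas3 (0.0923), Samd9l (0.106) and Cmpk2 (0.121). Nearest to Slfn4 were Mmp9 (0.208), Pglyrp1 (0.258) and Ceacam10 (0.295), of which Mmp9 is on the neutrophil list above. Nearest to Slfn5 were Cebpd (0.153), Tent5a (0.174) and Trim34a (0.189). Hsh2d (0.0738), A030005L19Rik (0.106) and Lat2 (0.112) were nearest to Slfn2. Il12rb2 (0.0996), Gm48348 (0.120) and Ap3m1 (0.132) were nearest to Slfn3. Slfn9, with little change, was near to Wdr46 (0.0364) and Psme3 (0.0431).

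Beside the cluster, of the 4 RefSeq genes on the Slfn5 side, Nle1 and Unc45b were in the table. Nle1, a ribosome assembly factor gene, rose by 0.17 on the log2 scale, from 1780 ± 59.9 to 1999 ± 113 (mean ± SD; limma adjusted p = 0.0255), and Unc45b was below the filter, at 1.43 ± 0.962 in controls and 7.11 ± 7.59 in the other group.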

How the data were processed

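Leukemic spleens were pressed to single cells, red cells were lysed, and strand-specific libraries were made from total RNA, per the labels' protocols. The deposited values are a normalized signal per gene, called DESeq-normalized counts by the authors; kallisto 0.44.0, DESeq and mm10 are named in the submitters' processing notes. The annotation, any gene filter and the strand setting are not given in the sources used here. Between 68.0% and 74.0% of low values lay within 0.1 reads of a whole multiple of the most frequent low value, so whole reads were not recovered and no count model was run; the depth is approximate.

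From these values log2(value + 1) was computed for genes with a mean of at least 10 and tested with limma 3.58.1 in R 4.3.3 (group as only term, intensity trend, Benjamini-Hochberg over 15276 genes, threshold 0.05). Log2 differences on this scale understate changes of low genes. Exact two-sided permutation tests ran over the 252 assignments of samples. The fit was tested on simulated data with known changes. Lengths, positions and shared 31-base words came from GENCODE M21 transcripts, and promoters from RefSeq, GRCm38, matched by symbol for all 7 members. Coding sequences were aligned globally with Biopython 1.88. Named genes were the members, Sirt1, other Slfn genes, the 2 largest called rises and falls of each list, the 3 nearest profiles per member, the markers at the ends of a list's range and the 4 genes on each side of the cluster; some of these are not reported here. Members and lists were chosen with earlier results of these data known. Alternatives were pseudocounts, filters, scalings, limma settings, an exact test and leaving out each sample.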

Additional observations from a re-analysis of the deposited data

Results flagged for a closer look

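For 54 genes per group of 5, the gap from the highest or lowest sample to the next was divided by the range (Dixon's ratio). The genes were the members, Sirt1, Slfn10-ps, Slfn14, called genes named from the interferon and quiescence lists, profiles nearest to members, and neighbours and pseudogenes of the cluster. In 11 of 108 sets the ratio exceeded the critical value of 0.71, where 1 in 20 of independent sets would give 5.4. Many of these genes were chosen by their values here, some for following a member. The sets are therefore not independent, 1 sample can recur in several, and no excess can be read from the 11. No member of the family was among the 11.

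In 5 of the 11 the low sample was labelled Sirt1-deleted replicate 10: Irf7 had 1043 normalized counts there, while the other 4 samples had 1815 to 2098, Irf9 was at 1879 against 2638 to 2944, Ifit1 at 378 against 881 to 1074, Dhx58 at 377 against 762 to 877, and Oas3 at 1694 against 2522 to 2802. Labelled Sirt1-deleted replicate 8 was the highest for Ifnlr1 (90.2 against 36.4 to 51.2) and replicate 12 for Gm11427 (11679 against 9767 to 10292). Among controls, replicate 4 was the highest for Ifnlr1 (22.1 against 9.53 to 12.1), replicate 2 for Ifngr2 (684 against 591 to 609) and Jak1 (9461 against 8336 to 8630), and replicate 5 for Ifit3 (48.3 against 22.2 to 27.9).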

How the results depend on the processing

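No paired analysis was possible because no title number occurs in both groups. All 6 called members kept direction and call under 10 alternatives with every sample and in 10 fits without 1 sample. Without 1 sample the log2 difference ranged from 1.43 to 1.72 for Slfn1, 0.94 to 1.13 for Slfn2, -0.98 to -0.69 for Slfn3, 2.37 to 2.96 for Slfn4, 1.26 to 1.57 for Slfn5, 1.31 to 1.51 for Slfn8 and -0.21 to -0.11 for Slfn9. Slfn9 passed only without labelled Sirt1-deleted replicate 11 (-0.21). Slfn10-ps changed sign under quantile normalization (-0.12) and without control replicate 5 (-0.041), and ranged from -0.041 to 0.119 without 1 sample. The exact permutation test called 3659 of all tested genes, where limma called 5518 and 4201 to 6260 without 1 sample. The list of kinases, STATs and IRFs had 9 calls, 5 with the exact test and 7 to 9 without 1 sample. The quiescence list had 3 calls, 8 with sample weights and 2 to 8 without 1 sample. The number of pairs that differed was 16 to 19 without 1 sample: Slfn2 against Slfn5 lost its call in 6 of these fits and Slfn4 against Slfn8 in 4. Rescaling moved the median of all genes by under 0.1. The causes of these changes were not tested. Values of Slfn3, Slfn4, Slfn8 and Slfn9 depend on how reads of shared sequence were divided, which these files cannot show.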

Other observations

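Slfn14, the Schlafen gene known from reticulocytes and platelets, did not pass the test between the groups (158 ± 104 in labelled Sirt1-deleted and 196 ± 97.3 in control samples, SD, n = 5 each; limma adjusted p = 0.631) but varied within both. Its normalized counts were 236, 40.3, 184, 272 and 59.7 in labelled Sirt1-deleted replicates 7, 8, 10, 11 and 12, and 295, 41.2, 204, 182 and 258 in control replicates 2 to 6. Labelled Sirt1-deleted replicates 8 and 12 and control replicate 3 were far below the others. The same 3 samples had the lowest summed counts of 8 erythroid markers, genes of red cell precursors: 28635, 40672 and 32895, against 65694 to 107610 in the other 7. Their part in the spread of Slfn14 was not tested.

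Slfn9 and Slfn3, members that did not rise, also had labelled Sirt1-deleted replicates 10 and 11 as the highest of their group, at 2624 and 2832 for Slfn9 and at 774 and 760 for Slfn3. In both genes replicate 12 was the lowest, at 2108 and 344. For Slfn4, replicates 10 and 11 were the lowest.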
